A study of Mus musculus with 6 samples.

Results

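Interferon-stimulated and RNA-sensing genes were followed in primary mouse dermal fibroblasts with and without 5-aza-2'-deoxycytidine, one gene at a time and array by array. The set held 41 genes: 9 that sense RNA or DNA or pass the signal on, 9 receptors and signal factors, 19 antiviral effectors and 4 interferon-induced GTPases. A gene was found on the array when a probe set, the group of short probes that reads one transcript, named that gene alone in the platform's annotation. By this rule 39 of the 41 genes, among 18193 genes of the table, were found, with 70 probe sets. Rigi, listed there as Ddx58, was among them. Isg15 and Ifi44 have no such probe set in the table used and were not analysed here.

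All cells came from the dermis of B6 mice of both sexes aged 0 to 2 days. They were cultured from explants made separately for each biological replicate and were at passage 4. In the treated group, 3 cultures received 5-aza-2'-deoxycytidine at 5 µM for 96 hours, with a fresh preparation every 24 hours, and then 24 hours of medium without the drug. The control group was 3 cultures without treatment. The drug, also called decitabine, is a cytidine analogue that traps DNA methyltransferases after its incorporation into DNA, and dividing cells then lose methylation. Total RNA of each culture was measured on 1 expression array, and DNA methylation at these genes was not analysed here.

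Cells recognise viral RNA with Rigi, Ifih1 and Tlr3, and viral DNA with sensors such as Ifi204, while Zbp1 binds left-handed nucleic acids. Sensors signal through adaptors, Mavs for Rigi and Ifih1, and through interferon regulatory factors to switch on type I interferon. This interferon binds the receptor made of Ifnar1 and Ifnar2. The receptor activates ISGF3, a complex that includes Stat2 and Irf9 and binds the interferon-stimulated response element (ISRE) in the promoters of interferon-stimulated genes. Interferon gamma acts through another promoter element, the gamma-activated site (GAS). In many cell types, loss of DNA methylation by this class of drug is known to release transcripts of endogenous retroviruses, whose double-stranded RNA can start this pathway. The pathway is also active at a low level in fibroblasts without infection.

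The promoters of the 4 called genes with an ISRE core are shown, with Ifit3 as a gene with a core that was not called and Oasl1 as a called gene without one, because the ISRE is the site through which interferon is known to act on such genes. Each runs 5′ to 3′ on the strand of its gene over the 250 bases before the transcription start, from RefSeq on GRCm38.p6. Capitals mark the ISRE core GAAANNGAAA, or its reverse complement TTTCNNTTTC, where N is any base and overlapping matches are merged.
Oas1a (chr5:120907526-120907775, minus strand, higher in treated): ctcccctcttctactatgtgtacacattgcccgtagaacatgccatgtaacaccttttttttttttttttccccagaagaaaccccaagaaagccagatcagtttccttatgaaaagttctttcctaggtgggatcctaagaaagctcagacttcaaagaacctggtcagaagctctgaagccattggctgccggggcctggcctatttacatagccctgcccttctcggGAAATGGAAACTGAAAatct
Bst2 (chr8:71537473-71537722, minus strand, higher in treated): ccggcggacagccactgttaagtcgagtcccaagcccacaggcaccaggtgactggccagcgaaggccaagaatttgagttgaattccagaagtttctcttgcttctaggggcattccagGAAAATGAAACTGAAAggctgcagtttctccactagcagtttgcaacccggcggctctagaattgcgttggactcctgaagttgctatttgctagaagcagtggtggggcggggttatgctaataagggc
Irgm1 (chr11:48871421-48871670, minus strand, higher in treated): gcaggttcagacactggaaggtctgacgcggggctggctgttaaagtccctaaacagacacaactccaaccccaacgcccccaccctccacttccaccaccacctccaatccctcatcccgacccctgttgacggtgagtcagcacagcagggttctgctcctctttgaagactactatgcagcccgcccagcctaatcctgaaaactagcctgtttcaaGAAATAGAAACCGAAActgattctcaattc
Stat2 (chr10:128270248-128270497, plus strand, lower in treated): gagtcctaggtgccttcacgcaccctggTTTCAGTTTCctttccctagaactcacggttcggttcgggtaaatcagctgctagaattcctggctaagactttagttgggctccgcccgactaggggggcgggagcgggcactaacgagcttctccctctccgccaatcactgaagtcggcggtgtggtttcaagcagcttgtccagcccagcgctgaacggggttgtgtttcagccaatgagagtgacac
Ifit3 (chr19:34583279-34583528, plus strand, not called): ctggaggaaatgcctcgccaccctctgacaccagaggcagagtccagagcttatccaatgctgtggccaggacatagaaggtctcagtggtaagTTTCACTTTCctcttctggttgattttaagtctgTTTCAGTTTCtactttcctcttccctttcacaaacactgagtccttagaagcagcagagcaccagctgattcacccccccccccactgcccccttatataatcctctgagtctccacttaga
Oasl1 (chr5:114922990-114923239, plus strand, lower in treated, no core): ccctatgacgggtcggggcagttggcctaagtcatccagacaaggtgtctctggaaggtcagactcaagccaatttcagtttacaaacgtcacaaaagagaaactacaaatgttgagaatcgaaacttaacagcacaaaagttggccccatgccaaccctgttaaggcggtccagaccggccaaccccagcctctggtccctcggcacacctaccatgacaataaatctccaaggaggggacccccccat
In Oas1a, Bst2 and Irgm1 a pair of cores overlapped by 4 bases to form a single run. Ifit3 carried 2 separate cores in the reverse orientation and Stat2 carried 1. The called genes Tlr3, Irf1 and Irf9 also had windows without a core, not printed here, and no window was held for Ifi204 or Iigp1.

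Windows of 300 bases, from 250 before to 50 after the start, were held for 31 of the 41 genes. An ISRE core on either strand occurred in 14 of these 31 genes (45.2%), against 3.99% of 27025 genes with a window. The 14 comprised 7 effectors, 3 GTPases, 3 sensors and 1 signal factor, and a gene with several windows counted once if any window held the core. The GAS motif TTCNNNGAA, which reads the same on both strands, occurred in 10 of the 31 genes (32.3%) and in 9.55% of all genes. CpG dinucleotides, the sites of methylation in mammalian DNA, were sparse in the effector promoters and dense in those of the signal factors. The ratio of CpG observed to that expected from base composition had a median of 0.280 over 16 effector windows, 0.393 over 3 GTPase windows, 0.651 over 8 sensor windows and 0.770 over 10 signal factor windows, against 0.384 over all windows. A match to a motif describes the letters and does not show that a factor binds there. A window without the core lacks that exact match alone. It can hold a similar sequence, and a core can lie outside the window, so no core does not mean no ISRE.

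The arrays were comparable within groups. Pairs of arrays of one group correlated at 0.972 to 0.974 in scaled log2 signal, and pairs from different groups at 0.863 to 0.883. Of 11 fibroblast markers on the array, 11 exceeded the median signal on all 6 arrays, which fits the labelled cell type. Their summed signal averaged 59790 ± 4293 (SD, n = 3) for the controls and 29013 ± 2966 for the treated group, and 10 of the 11 were lower in treated cultures at an adjusted p under 0.05. Leukocyte markers summed to 1081 ± 61.1 and 1304 ± 135 over 13 genes. Of these, 5 (Adgre1, Csf1r, Cd14, Lyz2 and Laptm5) exceeded the array median on every array, 4 (Ptprc, Itgam, Aif1 and Cd3e) lay below it on every array, and Cd68 was higher in treated cultures, at 113 ± 7.46 against 50.5 ± 19.9 (limma, adjusted p = 0.00703). Endothelial markers summed to between 295 and 356 in controls and between 239 and 360 in treated cultures over 7 genes, and keratinocyte markers to between 209 and 298 and between 408 and 478 over 8 genes. Ivl alone went from 3.90 ± 0.839 to 179 ± 24.8 and made up most of the keratinocyte difference. In RNA from a whole culture, fewer cells of a type and less RNA per cell cannot be told apart.

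The interferon set did not move as a block. Of the 36 genes bright enough to test, 5 rose in treated cultures (Tlr3, Irf1, Oas1a, Bst2 and Irgm1), 5 fell (Ifi204, Stat2, Irf9, Oasl1 and Iigp1) and 26 passed the test in neither direction. A gene was tested when its signal exceeded the array median on at least 3 of 6 arrays, and it is represented by its brightest tested probe set. Called genes made up 27.8% of the set, against 41.1% of all 12194 genes tested. Signals of the set varied more between treated cultures, with a median log2 SD of 0.36 against 0.14 for all genes. A wider spread makes a call harder to reach, so the lower share does not by itself show smaller changes. Rises were 13.9% and falls 13.9% of the set, against 19.5% and 21.6% of all genes. The median log2 change, treated minus control on the scale log2(signal + 9.66), was -0.02 for the set and -0.0032 for all genes, and changes within the set ranged from -1.50 to 0.97. Without scaling between arrays the called genes were 2 higher and 6 lower, so the balance of directions rests on the scaling.

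All treated arrays lay above all controls for 5 of the 36 genes and below them for 7, so that the groups did not overlap for 33.3%, against 52.5% of all genes and 50.4% of all probe sets. Of the tested genes, 30 exceeded the median on all 6 arrays, and Tlr3 alone passed the filter through the arrays of one group. Cmpk2, Mx1 and Mx2 were on the array but too dim to test. Mx1, an antiviral GTPase that carries a disabling deletion in many laboratory mouse strains, averaged 18.0 ± 5.07 (SD, n = 3) over controls and 16.8 ± 2.53 over treated cultures.

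**Figure D1:**
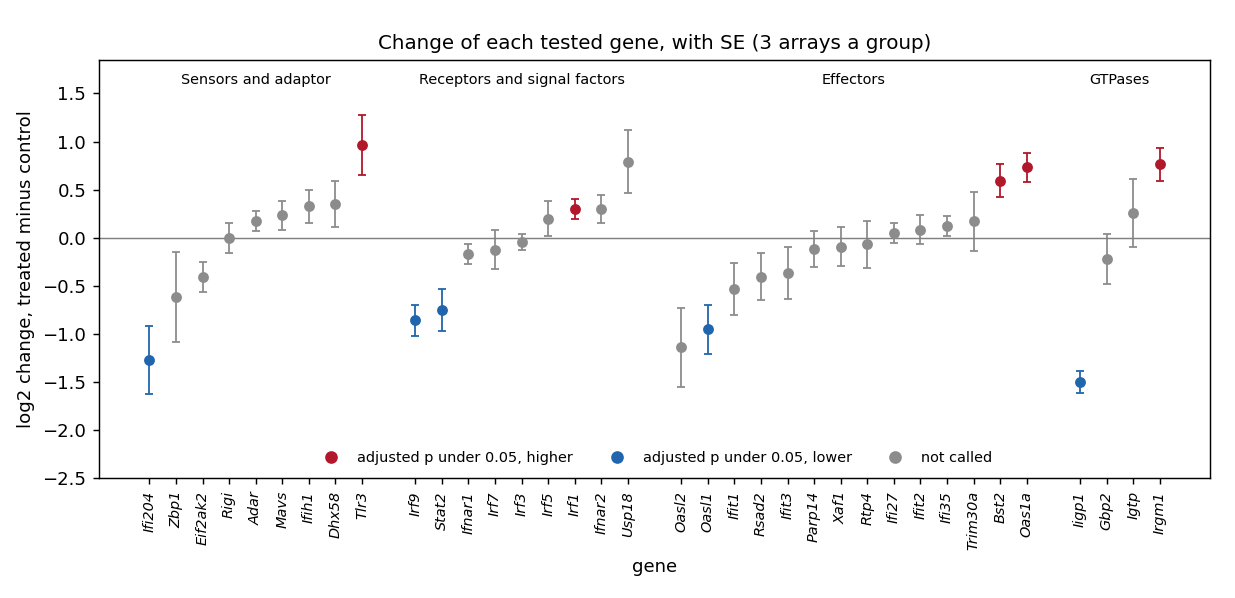
Log2 change of each of the 36 tested genes, treated minus control, with the standard error of the limma fit (3 arrays a group), ordered by change within each role. The 5 genes higher in treated cultures are red, the 5 lower genes are blue and the other 26 are grey, from Iigp1 at -1.50 to Tlr3 at 0.97.

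Among the sensors, the RNA helicases did not pass the test while the endosomal receptor Tlr3 rose and the DNA sensor Ifi204 fell. Of the 9 sensor genes, 1 rose and 1 fell, 11.1% each against 19.5% and 21.6% of all genes. Their median log2 change was 0.17. Tlr3, which binds double-stranded RNA in endosomes, was dim in every culture. Its signal read 48.7, 36.1 and 23.1 in controls 1 to 3, and treated cultures 1 to 3 read 53.6, 88.9 and 95.3. Every treated array lay above every control, the nearest pair being treated 1 and control 1. The log2 change was 0.97 ± 0.31 (SE; limma, adjusted p = 0.0347). Tlr3 exceeded the array median on 0 control and 3 treated arrays, so it entered the test through the group where it was high. With all probe sets tested, the same probe set was not called (adjusted p = 0.0724). Tlr3 was then represented by another probe set, at 43.5 ± 7.92 (SD, n = 3) and 64.9 ± 18.0, and the change of 0.47 was not called (adjusted p = 0.318). The call was also lost without control 2 (adjusted p = 0.062), control 3 (0.1), treated 2 (0.109) or treated 3 (0.126), and without scaling between arrays (0.0795).

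Ifi204, a member of the interferon-inducible p200 family, had signals of 248, 158 and 266 in controls 1 to 3 and 77.4, 48.4 and 159.5 in treated cultures 1 to 3. Treated 3 reached the level of control 2, so the groups overlapped, while treated 1 and 2 were well below all controls. The log2 change was -1.27 ± 0.35 (SE; limma, adjusted p = 0.0178). Leaving out control 1 (adjusted p = 0.0563), control 3 (0.0678) or treated 1 (0.0558) ended the call.

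Rigi and Ifih1, the cytoplasmic helicases that bind viral double-stranded RNA, were expressed in all cultures. Rigi was at 570.3, 818 and 649.5 in controls and 625, 595 and 809.8 in treated cultures, a log2 change of -0.0032 ± 0.15 (SE; limma, adjusted p = 0.989). Its values were interleaved between the groups. A dimmer Rigi probe set read 162, 159 and 233 in controls and 125, 67.8 and 146 in treated cultures, with the groups separate and a log2 change of -0.71 ± 0.26 (limma, adjusted p = 0.0583), so the 2 probe sets gave different pictures of the gene.

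Ifih1 was at 227, 269 and 259 in controls and 324, 241 and 407 in treated cultures (log2 0.33 ± 0.18, SE; limma, adjusted p = 0.178). Treated 2 lay among the controls and the other treated cultures above them, and without treated 2 the change was 0.52 and was called (adjusted p = 0.0246). The adaptor Mavs, which sits on mitochondria, was at 191, 171 and 214 in controls and 195, 267 and 223 in treated cultures by its brighter probe set, which was not called (limma, adjusted p = 0.248). Its second probe set did pass the test, at 168, 151 and 215 against 216, 255 and 264, a log2 change of 0.45 ± 0.15 (SE; limma, adjusted p = 0.0423).

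Eif2ak2 (PKR), the kinase that halts translation on binding double-stranded RNA, was at 381, 367 and 376 in controls and 314, 213 and 331 in treated cultures. All treated values lay below the controls and treated 2 was the lowest, yet the change of -0.40 ± 0.16 (SE) missed the threshold (limma, adjusted p = 0.0686). Its other 2 tested probe sets, at log2 changes of 0.02 and -0.28, were not called either. Adar, which edits adenosine in double-stranded RNA, was at 535, 606 and 522 against 602, 578 and 697 (limma, adjusted p = 0.233). Zbp1, a sensor of left-handed nucleic acids, was at 120.2, 102 and 64.3 in controls and 64.0, 20.9 and 123 in treated cultures. Treated 3 lay above all controls and treated 2 far below them. The remaining sensor, Dhx58, an RNA helicase without a signalling domain, had a log2 change of 0.35 ± 0.24 by its tested probe set (limma, adjusted p = 0.29). Its other probe sets were too dim to test and pointed the other way, at log2 changes of -1.57 and -1.16. With all probe sets tested, the first of these was called lower (limma, adjusted p = 0.0129) and the second was not called (0.138).

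Of the 9 receptors and signal factors, 1 rose (11.1%) and 2 fell (22.2%), near or below the 19.5% and 21.6% of all genes. Both that fell are subunits of ISGF3. Irf9, the DNA-binding subunit, was at 491, 468 and 483 in controls and 285, 196 and 318 in treated cultures. The controls were tight, at 481 ± 12.1 (SD, n = 3), and every treated culture was well below them, at 267 ± 63.2. The log2 change was -0.85 ± 0.16 (SE; limma, adjusted p = 0.00239), and Irf9 passed the threshold in 15 of 15 alternative analyses.

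Stat2, the subunit that carries the activation domain, was at 245, 191 and 145 in controls and 127, 81.7 and 124 in treated cultures. The groups did not overlap, with control 3 the nearest to the treated values. The log2 change was -0.75 ± 0.22 (SE; limma, adjusted p = 0.0236), and a dimmer probe set read 171, 107 and 93.4 in controls and 30.9, 21.3 and 52.9 in treated cultures (adjusted p = 0.00327). That dimmer probe set exceeded the array median on the control arrays alone. Without control 1, control 2 or treated 2 the brighter probe set was no longer called (adjusted p = 0.0879, 0.0581 and 0.0727).

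Irf1, a transcription factor induced by interferon gamma, was at 428, 407 and 395 in controls and 505, 456 and 563 in treated cultures. The shift was small and every treated array lay above the controls, with a log2 change of 0.30 ± 0.10 (SE; limma, adjusted p = 0.0454). This call is close to the threshold: it was lost on leaving out control 1 (adjusted p = 0.0648), control 2 (0.0955), control 3 (0.101), treated 1 (0.104) or treated 3 (0.152), and without scaling (0.621). It was also lost with all probe sets tested (limma, adjusted p = 0.0658) and without the intensity trend (0.0847). The Irf1 call thus held in 7 of 15 alternatives.

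Usp18, the protease that removes Isg15 from proteins and restrains the receptor, was at 326, 345 and 234 in controls and 529, 297 and 895 in treated cultures. Treated 1 and 3 lay above all controls while treated 2 lay among them, and the change of 0.79 ± 0.33 (SE) was not called (limma, adjusted p = 0.0839). Without treated 2 it was 1.19 and was called (adjusted p = 0.00431). The receptor chains differed little: Ifnar1 was at 436, 456 and 432 in controls and 361, 386 and 431 in treated cultures, and Ifnar2 was at 394, 436 and 458 against 415, 623 and 573. Neither passed the test (limma, adjusted p = 0.218 and 0.141), although Ifnar2 was called without treated 1 (0.015). Irf3, the factor that sensors activate first, was at 514, 489.5 and 526 in controls and 509.6, 469.8 and 504 in treated cultures, a log2 change of -0.04 ± 0.09. Irf5 and Irf7, which extend the interferon response, were not called either (adjusted p = 0.436 and 0.683).

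Of the 14 antiviral effectors tested, 2 rose (14.3%), 1 fell (7.14%) and 11 were not called, with a median log2 change of -0.08. Of all genes, 19.5% rose and 21.6% fell. Oas1a, which makes the 2-5A messenger that activates RNase L, was at 176, 205 and 150.4 in controls and 279, 270.0 and 353 in treated cultures. Each treated culture exceeded each control, with a log2 change of 0.73 ± 0.15 (SE; limma, adjusted p = 0.00397). The call held in 14 of 15 alternatives and was lost without scaling between arrays (adjusted p = 0.0596).

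Bst2 (tetherin), which holds budding virus particles on the cell surface, was at 435, 382 and 366 in controls and 653, 442 and 741 in treated cultures. Treated 2 was only just above control 1 and the other treated cultures were well above. The log2 change was 0.59 ± 0.17 (SE; limma, adjusted p = 0.0219). The call was lost on leaving out control 2 (adjusted p = 0.0591), control 3 (0.0685), treated 1 (0.0775) or treated 3 (0.075), and without scaling (0.134). It was also lost without the intensity trend (limma, adjusted p = 0.0577), and held in 9 of 15 alternatives.

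Oasl1 and Oasl2, relatives of the OAS enzymes that lie side by side on chromosome 5, were lower in every treated culture. Oasl1, a translational inhibitor of Irf7, was at 112, 141 and 180.1 in controls and 51.0, 63.1 and 99.9 in treated cultures. Its log2 change was -0.95 ± 0.25 (SE; limma, adjusted p = 0.0151), and the call was lost without control 3 (adjusted p = 0.0656) or treated 1 (0.0514). Oasl2 was at 339.7, 321 and 321 in controls, a narrow range, and at 169, 59.7 and 281 in treated cultures. The treated cultures were all below the controls but far apart from each other, and the change of -1.14 ± 0.41 was not called (limma, adjusted p = 0.0532). Without treated 3 it was called lower (adjusted p = 0.00598).

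The IFIT genes, whose products bind foreign RNA ends, lie on chromosome 19 and were not called. Ifit1 was at 226, 219 and 283 in controls and 163, 103 and 259.6 in treated cultures (log2 -0.53 ± 0.27, SE; limma, adjusted p = 0.156). Ifit3 was at 391, 355 and 363 in controls and 279.6, 177 and 465 in treated cultures (log2 -0.36 ± 0.27; adjusted p = 0.332). For both, treated 1 and 2 were below all controls and treated 3 was not. Without treated 3 both were called lower, with log2 changes of -0.84 for Ifit1 (adjusted p = 0.0139) and -0.71 for Ifit3 (0.0169). Ifit2 was at 242, 259 and 223 against 267, 205 and 305 (adjusted p = 0.703).

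The other effectors spread around their controls. Rtp4, a chaperone of receptors, was at 602, 676 and 608 in controls and 620.0, 383 and 905 in treated cultures. Trim30a, a TRIM family protein, was at 206, 340.2 and 269.6 against 337, 174 and 463. In both, treated 2 was lowest and treated 3 highest of all 6 cultures. Rsad2 (viperin), Xaf1, Parp14 and Ifi27 had log2 changes between -0.40 and 0.05, with adjusted p from 0.231 to 0.753 (limma).

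Ifi35 was bright and its probe sets disagreed. The representing one read 1393, 1269 and 1322 in controls and 1460.1, 1254 and 1639 in treated cultures, and was not called (limma, adjusted p = 0.402). Another read 419, 423 and 502 against 274, 245 and 291, a log2 change of -0.71 ± 0.11 (SE; adjusted p = 0.000985). Both carry a suffix for probes that can match several transcripts, and the third probe set, without such a suffix, went from 403 ± 52.8 (SD, n = 3) to 472 ± 100.2 and was not called (adjusted p = 0.347). Over the set, 15 genes had more than 1 tested probe set: 13 gave the same call with each, Mavs and Ifi35 did not, and 0 were called in opposite directions. Of the 53 tested probe sets, 6 were higher and 8 lower, against 38.7% called among all probe sets.

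Of the 4 interferon-induced GTPases, Irgm1 rose, Iigp1 fell and the other 2 were not called. That is 25.0% each way, against 19.5% and 21.6% of all genes. Iigp1, which damages the vacuoles of intracellular parasites, was at 457, 463 and 465 in controls and 141, 153 and 180.5 in treated cultures. The groups were far apart, at 462 ± 3.89 (SD, n = 3) and 158 ± 20.3, with a log2 change of -1.50 ± 0.12 (SE; limma, adjusted p = 1.1e-05). A second probe set fell by 1.24 ± 0.24 on the log2 scale (adjusted p = 0.00265). Irgm1, a regulator of the same GTPase family that also acts in autophagy, was at 569, 730.1 and 625 in controls and 1086, 844 and 1414 in treated cultures. Every treated culture was above every control, and the log2 change was 0.76 ± 0.17 (adjusted p = 0.00618). Iigp1 and Irgm1 each passed the threshold in 15 of 15 alternatives.

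Igtp and Gbp2 had treated cultures on both sides of the controls. Igtp was at 217, 301 and 167 in controls and 372, 136 and 370.4 in treated cultures, and Gbp2 was at 331, 297 and 281 against 269, 160.4 and 399. Neither was called (limma, adjusted p = 0.614 and 0.558). Without treated 2, Igtp had a log2 change of 0.72 and was called (adjusted p = 0.0297).

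**Figure D2:**
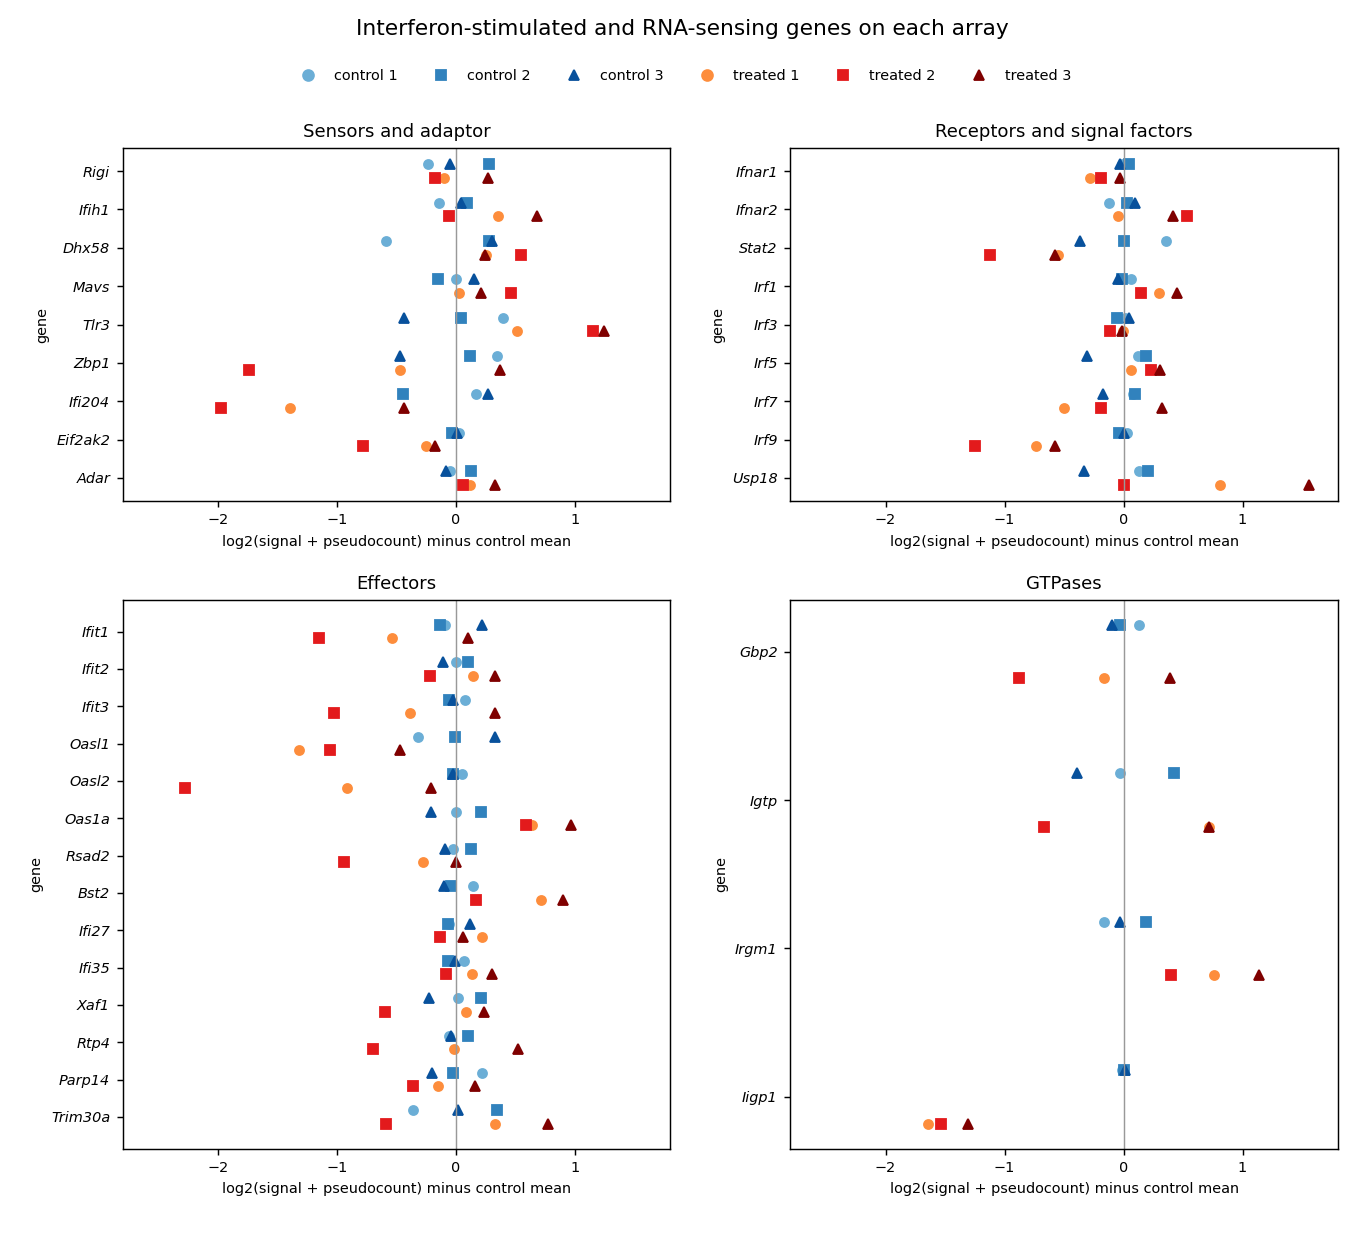
Log2(signal + 9.66) of each tested gene on each of the 6 arrays, as the difference from the mean of the 3 control arrays, by role. Blue symbols are controls 1 to 3 and orange to dark red symbols are treated cultures 1 to 3. Control values cluster around 0 while treated 2 (red squares) lies to the left of treated 3 (dark red triangles) for 33 of 36 genes.

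The treated cultures differed from one another in the level of the whole set more than the controls did. The median SD of log2 signal over the 3 arrays of a group was 0.14 in controls and 0.36 in treated cultures for the 36 genes, and 0.16 and 0.14 for all genes. The treated SD exceeded the control SD in 30 of 36 genes (83.3%), against 46.8% of all genes. A treated SD of at least 0.5 was seen in 10 of the 36 (27.8%), against 5.41% of all genes: Zbp1, Oasl2, Igtp, Usp18, Ifi204, Trim30a, Ifit3, Gbp2, Ifit1 and Rtp4.

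**Figure D3:**
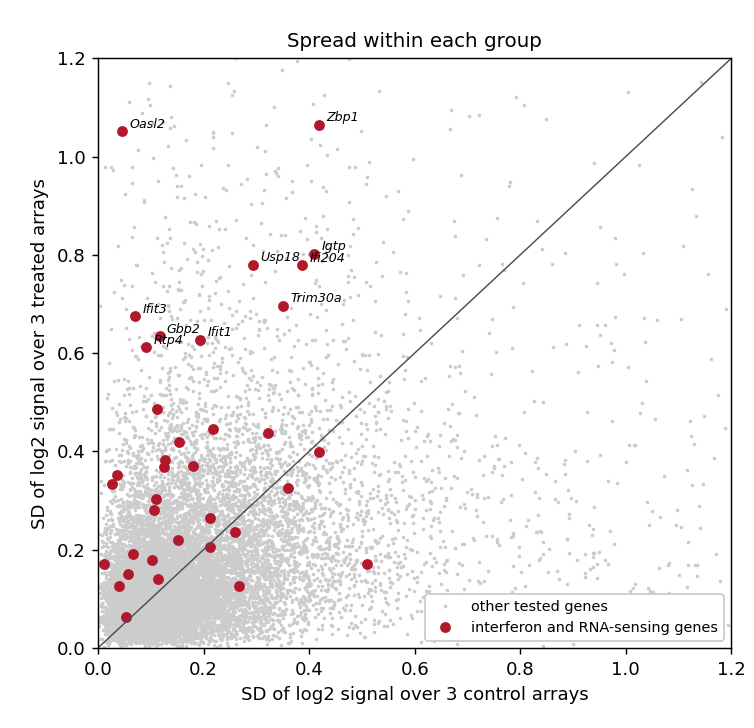
SD of log2 signal over the 3 treated arrays against that over the 3 control arrays, for the 36 interferon and RNA-sensing genes (red) and the other tested genes (grey); the line marks equal SD. Of the red points 30 lie above the line, with Zbp1 and Oasl2 at treated SDs of 1.06 and 1.05. The axes end at 1.2, beyond which 61 other genes and 0 of the set lie.

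The differences between treated cultures ran the same way in most genes. Treated 2 was the lowest of the treated cultures in 27 of the 36 genes (75.0%) and treated 3 the highest in 29 (80.6%), against 33.3% and 34.4% of all genes. The signal of treated 3 exceeded that of treated 2 in 33 of 36 genes (91.7%, against 50.7% of all genes). The exceptions were Dhx58, Mavs and Ifnar2. In a list of further pathway genes outside the set, treated 3 exceeded treated 2 in 60 of 82 genes (73.2%), and in 33 of its 41 interferon targets (80.5%), where treated 2 was lowest in 63.4%. The median difference, treated 3 minus treated 2, was 0.57 on the log2 scale, or 1.49-fold, and 0.0044 for all genes. This order was seen in the data and then described, and genes of one culture are not replicates, so no test is given.

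The gap between treated 3 and treated 2 was widest in the GTPases and effectors. The full order ran treated 2, treated 1, treated 3 from lowest to highest. It held in 12 of 14 effectors, 6 of 9 sensors, 3 of 9 signal factors and 2 of 4 GTPases. Among the 14 effectors, treated 2 was lowest in 13 and treated 3 highest in 13, and treated 3 exceeded treated 2 in 14, with a median difference of 0.78 (1.72-fold). The median difference was largest for the 4 GTPases, at 1.0, and was 0.44 for the 9 sensors and 0.30 for the 9 signal factors. The ratio of treated 3 to treated 2 in signal was 5.87 for Zbp1, 4.71 for Oasl2, 3.29 for Ifi204, 3.01 for Usp18, 2.73 for Igtp and 2.63 for Ifit3. Relative to the control mean, the median gene of the set stood at a log2 difference of -0.01 in treated 1, -0.21 in treated 2 and 0.30 in treated 3. Treated 2 was thus mostly below the controls and treated 3 mostly above them. In controls no culture stood out to this degree, with control 1, 2 and 3 the lowest in 9, 10 and 17 genes.

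On deposited signals without scaling, treated 3 still exceeded treated 2 in 33 of 36 genes, but treated 2 was the lowest treated culture in only 16. Before scaling, treated 1 is the dimmest of the treated arrays for 91.7% of all genes. After quantile normalization the counts were 27 with treated 2 lowest and 33 with treated 3 above treated 2. Over all 53 tested probe sets of the set, treated 3 exceeded treated 2 in 48.

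Other measures of the same treated cultures are given beside this order. The 3' to 5' signal ratio of Actb, which reflects RNA integrity and labelling, was 1.18, 1.15 and 1.14 in treated cultures 1 to 3 and between 1.26 and 1.28 in controls. The same ratio for Gapdh was 0.747, 0.792 and 0.753 in treated cultures 1 to 3, highest in treated 2, and between 0.721 and 0.751 in controls. The factors that scaled the treated arrays were 1.29, 0.930 and 0.923, so treated 2 and 3 were of near equal brightness. Leukocyte markers summed to 1149, 1395 and 1368 in treated cultures 1 to 3, and were not lowest in treated 2. Fibroblast markers summed to 30850, 25591 and 30598 and were lowest in treated 2. By its representing probe set, each of these markers except Twist1 had treated 2 as the lowest of the treated cultures. The ratio of treated 3 to treated 2 in signal was 4.12 for Lum, 3.06 for Dcn, 1.70 for Pdgfra, 1.02 for Vim and 0.690 for Twist1. A low treated 2 was thus also seen outside the interferon set. The part of these measures in the order of the interferon set was not tested.

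Genes of the set with and without an ISRE core in the promoter window were read separately. Of the 13 tested genes of the set with a core, treated 2 was lowest in 13, treated 3 was highest in 11 and treated 3 exceeded treated 2 in 13, with a median difference of 0.74 (1.67-fold). Of the 15 with a window but no core, treated 2 was lowest in 8, treated 3 was highest in 12 and treated 3 exceeded treated 2 in 13, with a median of 0.30. Most genes of the set with a core were effectors or GTPases. Most with a window but no core were sensors or signal factors, so core and role overlapped in part, and their separate shares were not tested. Effectors stood on both sides: Ifit1, Ifit3, Oas1a, Rsad2, Bst2 and Trim30a with a core, and Ifit2, Oasl1, Oasl2, Ifi35 and Xaf1 without one. Treated 3 exceeded treated 2 in all of these effectors. Over all 345 tested genes with a core, treated 3 exceeded treated 2 in 58.3%. The 8 genes for which no window was held had a median of 0.87. Among genes outside the set, the median was 0.04 for 332 with a core and 0.0019 for 9488 without one. Genes with and without a core changed in both directions after treatment: with a core, Oas1a, Bst2 and Irgm1 rose and Stat2 fell, and without one, Tlr3 and Irf1 rose and Irf9 and Oasl1 fell. Ifi204 and Iigp1 fell and were among the genes without a window.

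**Figure D4:**
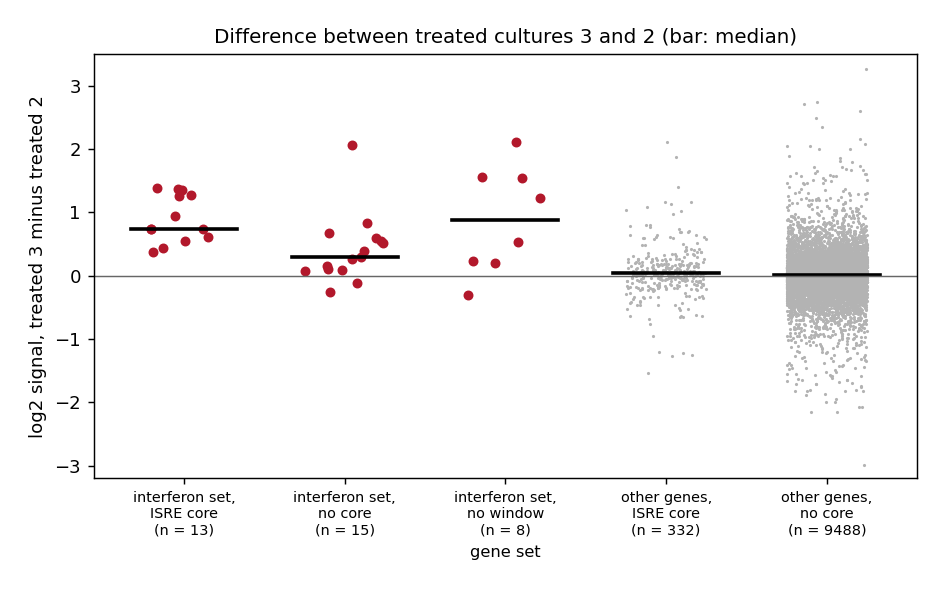
Difference in log2 signal between treated cultures 3 and 2, one point a gene, for the interferon set (red) with an ISRE core, without one and without a promoter window, and for the other tested genes (grey) with and without a core. Black bars are medians: 0.74, 0.30, 0.87, 0.04 and 0.0019.

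The number of genes called in the set depended on single cultures. Without treated 2, 7 genes were higher and 4 lower: Ifih1, Usp18 and Igtp joined the higher genes while Tlr3 left them, and Stat2 left the lower genes. Without treated 3, 2 were higher and 9 lower: Eif2ak2, Ifit1, Ifit3 and Oasl2 joined the lower genes, and Tlr3, Irf1 and Bst2 left the higher ones. Leaving out treated 1 gave 4 higher and 3 lower, control 1 gave 4 and 3, control 2 gave 2 and 4, and control 3 gave 2 and 3. Irf9 and Iigp1 remained lower and Oas1a and Irgm1 remained higher in each of these 6 fits.

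Around the set, a list of 117 further genes of the pathway was read in the same way. Of 82 tested, 14 rose (17.1%) and 25 fell (30.5%), against 19.5% and 21.6% of all genes, with a median log2 change of -0.15. Of the rises, Cxcl10 and Irf8, and of the falls, Gbp6 and Slfn8, exceeded the array median in one group alone. These counts also rested on single arrays: the rises numbered 9 without control 1, 9 without control 2, 7 without control 3, 7 without treated 1 and 8 without treated 3, and the falls 15 without control 2 and 16 without treated 2. Among further targets of interferon, 6 rose and 16 fell of 41. Among receptors, kinases and their regulators 3 rose and 5 fell of 12, among sensing adaptors 2 rose and 3 fell of 21, among ligands and cytokines 2 rose and 0 fell of 4, and among interferon regulatory factors 1 rose and 1 fell of 4. The 16 targets that fell included Ifitm1, Ifitm2 and Ifitm3, which block viral fusion, the guanylate-binding proteins Gbp3, Gbp6 and Gbp7, and Irgm2. Of these, Ifitm2 and Gbp6 were still called lower without control 2, without treated 2 and without scaling between arrays. Ifitm1, Ifitm3, Gbp3, Gbp7 and Irgm2 were not called without control 2. Gbp3, Gbp7 and Irgm2 were not called without treated 2 either, nor Gbp7 and Irgm2 without scaling.

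Interferon beta itself was dim and without a call. Ifnb1 was at 67.6, 56.8 and 53.7 in controls and 36.8, 73.0 and 66.6 in treated cultures (limma, adjusted p = 0.905). Cxcl10, a chemokine induced by interferons and by NF-kappaB, was at 44.0, 36.8 and 34.1 in controls and 200.1, 154 and 237 in treated cultures. Every treated value exceeded every control, treated 2 was the lowest of the treated, and the log2 change was 2.09 ± 0.20 (SE; limma, adjusted p = 4.49e-05). Cxcl10 exceeded the array median on 0 control and 3 treated arrays, so it entered the test through the group where it was high. When all probe sets were tested its adjusted p was 0.00018. The other genes with the smallest p among the rises were Slfn2, Ifi30, the interferon gamma receptor chain Ifngr2 and the adaptor Tank, at log2 changes of 1.14, 0.77, 0.78 and 0.34. The Tank call was lost without scaling (0.26, limma, adjusted p = 0.518) and with the median of its probe sets (0.14, adjusted p = 0.298), and its second tested probe set, at -0.05, was not called.

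Several genes of cytokine signal transduction fell by a large amount. Jak2, a kinase of the interferon gamma receptor, averaged 801 ± 43.9 (SD, n = 3) over controls and 396 ± 18.4 over treated cultures, which is 2.02-fold lower (limma, adjusted p = 2.53e-05). Stat3, the transcription factor of interleukin-6 signalling, went from 1525 ± 50.2 to 799 ± 49.8 (adjusted p = 2.24e-05). Socs3, its feedback inhibitor, was 4.94-fold lower in treated cultures, at a mean of 278 against 1371 ± 529 in controls (adjusted p = 5.55e-05). That brightest probe set, and another that was 4.44-fold lower, carry a suffix for probes that can match several transcripts. The Socs3 probe set without it was 2.07-fold lower, at 129 ± 28.5 in treated cultures against 267 ± 41.0 in controls (limma, adjusted p = 0.00148). The interferon target Ms4a4d fell the furthest of the list, from 751 ± 94.0 to 117 ± 29.5, and Ifitm2 from 5092 ± 191 to 2736 ± 483. The DNA-sensing pair Cgas and Sting1 were not called by their brighter probe sets (adjusted p = 0.58 and 0.236). Sting1 was at 254, 302 and 155 in controls and 128, 49.3 and 300.4 in treated cultures, with treated 2 lowest and treated 3 highest of the treated, and a dimmer probe set of it was lower (log2 -0.78 ± 0.19; adjusted p = 0.0097).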

How the data were processed

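Total RNA from 6 cultures was hybridised to 1 Affymetrix array each. The deposited values are MAS5 signal intensities, 1 per probe set and array; the submitters' processing notes name MAS5, and version, target intensity and detection calls were not given in the sources used here. MAS5 corrects each probe set with its mismatch probes, so low signals are uncertain. Arrays were multiplied to a common 2% trimmed mean (193.2) and transformed to log2(signal + 9.66), which understates changes of dim genes. Of 45037 probe sets outside the 64 manufacturer controls, 23388 exceeded the array median on at least 3 of 6 arrays and were tested with lmFit and eBayes (intensity trend, group alone, two-sided) in limma 3.58.1 under R 4.3.3. Benjamini-Hochberg adjustment ran over all of them, with 0.05 as threshold. The fit was checked on simulated data. The number of arrays limits the precision.

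Probe sets were named from the platform annotation (34945 name 1 gene; 34741 of these matched the RefSeq table of GRCm38.p6). Members and lists were chosen with earlier results of these data known. All members were to be named whatever their values, and of the pathway list up to 5 called genes in each direction by p, plus Ifnb1, Cxcl10, Sting1, Cgas and a further gene that is not reported here; other pathway names were chosen after their values were seen. Alternatives covered the pseudocount, filter, scaling, variance trend, replicate block, probe set choice and each array left out.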

Additional observations from a re-analysis of the deposited data

How the results depend on the processing

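Of the single-gene results under the 15 alternatives, 685 kept their side of the threshold, 32 lost it, 17 gained it and 0 changed direction while called. Without scaling between arrays, 2 genes of the set were higher and 6 lower, 6 and 15 of the pathway list, and 1977 and 3042 of all probe sets. That alternative moved the median of all genes to -0.08, and the set's to -0.10. Without the filter on dim probe sets, or without the intensity trend, 3 genes of the set were higher. Fitting the median of each gene's probe sets gave 2385 higher and 2588 lower rows among all genes, where 12194 rows replaced 23388. Leaving out 1 array gave 2 to 7 higher and 3 to 9 lower genes of the set, 7 to 10 higher and 15 to 29 lower pathway genes, and 3555 to 3926 higher and 3936 to 4202 lower probe sets. The treated order counts were added after seeing the data.

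Replicate numbers are shared by the groups, but no label states that a number marks a shared explant. Deviations from the group means correlated at 0.186, 0.172 and 0.072 for same-numbered cultures and below 0 for all other pairs. Deviations within a group sum to 0, so positive same-number values push the other pairs below 0. Only the same-number values are therefore a hint of pairing, from the data and not the design. With the replicate block, 4 genes of the set were higher and 8 lower, with Eif2ak2, Ifit1 and Oasl2 added to the lower ones and Tlr3 lost from the higher ones (adjusted p = 0.0516). Dim genes near background, such as Tlr3, have the least certain changes.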
